A study of Mus musculus with 2 samples.

Results

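The miR-125 family is made in the mouse by 3 genes, Mir125a, Mir125b-1 and Mir125b-2. Their rows were taken from the count tables of a microRNA-seq study by matching Ensembl identifiers to the GENCODE annotation, and all 3 had a value among the 1973 miRNA genes counted. The tissue was the neural tube, the embryonic structure that gives rise to brain and spinal cord, of mice of the strain B6NCrl at embryonic day 14.5, with no treatment stated. The 2 libraries formed 1 group, replicate 1 from pup 1 of dam 1 and replicate 2 from pup 1 of dam 2. Each litter was thus represented by 1 library. The labels call each sample a single neural tube and also give its sex as pooled male and female. Which of these holds could not be settled.

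A miRNA gene is transcribed as a hairpin from which a short RNA of the 5′ arm (5p) or 3′ arm (3p) is cut and loaded into Argonaute, and bases 2 to 8 of that RNA, the seed, pair with target mRNAs. The miR-125 family is the vertebrate counterpart of lin-4, the miRNA that times larval development in the worm Caenorhabditis elegans, and it shares with let-7 the known target Lin28, an RNA-binding protein of undifferentiated cells. Each miR-125 gene lies in a cluster with a gene of the miR-99/100 family and a gene of the let-7 family. In human neural cells miR-125b is known to promote neuronal differentiation.

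The sequences decide what the gene counts can show, because a read that fitted several positions of the genome was counted for no gene. The 5′ products are shown first, from RefSeq on GRCm38.p6, each read 5′ to 3′ with the seed in capitals.
miR-125a-5p: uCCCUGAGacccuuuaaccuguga
miR-125b-5p: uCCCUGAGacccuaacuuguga
miR-351-5p: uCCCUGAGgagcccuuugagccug
All carry the same seed. miR-125b-5p is the product of both Mir125b-1 and Mir125b-2, letter for letter, whereas miR-125a-5p is made by Mir125a alone, is 24 bases long against 22, and matches miR-125b-5p over its first 13 bases. The 3′ products differ between all 3 genes, also within the seed, and therefore tell the copies apart.
miR-125a-3p: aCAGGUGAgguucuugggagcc
miR-125b-1-3p: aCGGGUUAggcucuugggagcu
miR-125b-2-3p: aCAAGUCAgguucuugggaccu
Between miR-125b-1-3p and miR-125b-2-3p, 17 of 22 bases are identical, and the substitutions from the first to the second, counted from 1 at the 5′ end, are G3A, G4A, U7C, C11U and G20C.

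The hairpins of Mir125a and Mir125b-1 show where these products lie, with the 5p and 3p sequences in capitals.
Mir125a: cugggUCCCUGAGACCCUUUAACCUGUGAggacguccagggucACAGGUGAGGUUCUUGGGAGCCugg
Mir125b-1: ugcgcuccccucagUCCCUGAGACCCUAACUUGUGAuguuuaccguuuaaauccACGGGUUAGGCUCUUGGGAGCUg
Of the 51 windows of 18 bases in the Mir125a hairpin, 0 occurred in the RefSeq sequence of another miRNA gene. Of the 60 such windows in the Mir125b-1 hairpin, 5 did, all of them within the 5p sequence and all shared with Mir125b-2. At 22 bases 1 of 56 windows was shared, the full miR-125b-5p. Mir125b-2 entered this comparison by its 2 mature sequences, so bases beside its 5p product were not compared. A read of up to 22 bases from within miR-125b-5p therefore could not be counted for either gene. The counts of Mir125b-1 and Mir125b-2 hold their 3p reads and whatever longer reads had a single position, and the tables do not separate the arms. A count of Mir125a can hold both of its arms.

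**Figure D1:**
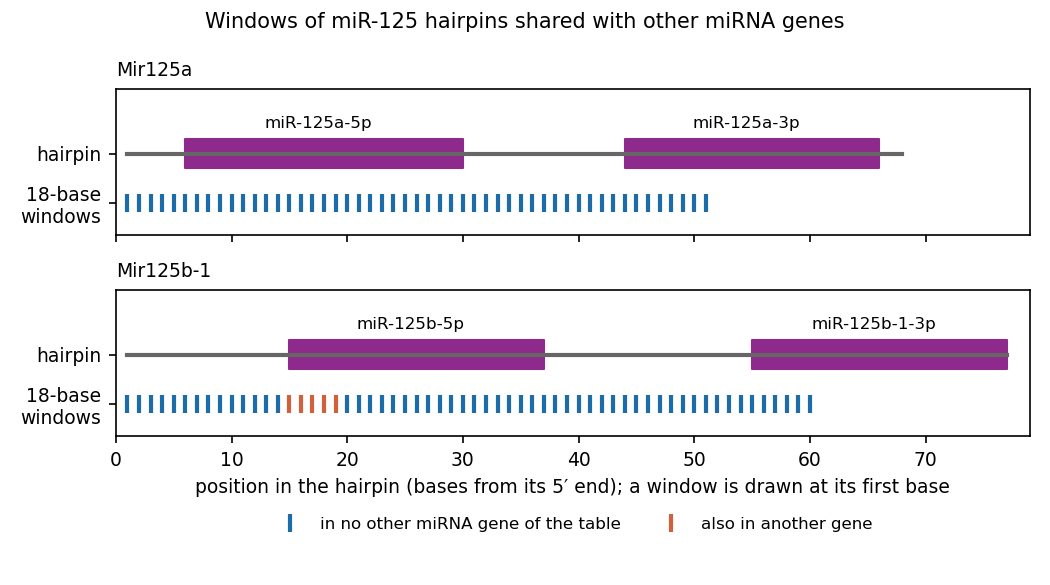
Position along the hairpins of Mir125a (68 bases) and Mir125b-1 (77 bases), in bases from the 5′ end, with the mature arms as purple bars. Each tick is a window of 18 bases drawn at its first base, blue where no other miRNA gene of the RefSeq table holds it and orange where one does: 5 windows of Mir125b-1 are orange, all in miR-125b-5p, and 0 of Mir125a. Mir125b-2 is in that table by its mature sequences only.

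Mir125a lies on chromosome 17, 17830812 to 17830879 (GRCm38, the assembly also called mm10, plus strand), within an annotated exon of the protein-coding gene Spaca6. Mir99b ends 554 bases before it and Mirlet7e 367 bases before it. Mir125b-1 lies on chromosome 9, 41581926 to 41582002, plus strand, in an intron of the noncoding transcripts 3110039I08Rik and Gm49317 and an exon of Gm28119, with Mir100 50421 bases and Mirlet7a-2 45114 bases before it. Mir125b-2 lies on chromosome 16, 77646273 to 77646343, plus strand, in an intron of Mir99ahg, the noncoding host gene of this cluster, and an exon of C130023A14Rik. Mir99a ends 47272 bases and Mirlet7c-1 46522 bases before it. All 3 clusters thus run in the same order, miR-99/100, let-7, miR-125, while the chromosome 17 cluster is far more compact.

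Replicate 1 held 3172235 reads on the sense strand of miRNA genes and replicate 2 held 3671915. Reads at several positions, 32.4% and 33.3% of all reads in the tables, entered no gene. Levels are given as counts per 1000000 sense miRNA counts (CPM), as mean ± SD over both libraries (n = 2). A miRNA read covers its whole molecule, so levels were not divided by length. The labels name no separate batch, and both samples were collected on the same day. The tissue label was checked on marker miRNAs in summed CPM. Genes of the body axis, Mir10a, Mir10b and Mir196b, summed to 408088 in replicate 1 and 359720 in replicate 2. Neuronal genes summed to 12102 and 10624, and neural progenitor genes to 8060 and 7497. The neuronal sum came mainly from Mir137, at a mean of 9457 CPM, with Mir128-1 at 1324 and Mir128-2 at 571. Mir124a-1 and Mir124a-2 of the same list had means of only 6.44 and 2.40 CPM. Of the 5 progenitor genes 4 were measured, without Mir9-1, and Mir135b and Mir92b held most of the sum. Genes of other cell types moved between the libraries. The 3 sensory genes summed to 2109 and 15050, the 4 mesenchymal genes to 1197 and 4884, the endothelial Mir126a stood at 8443 and 17271, and the myeloid Mir223 at 19.9 and 102 CPM. All of these were higher in replicate 2. The 3 skeletal muscle genes summed to 44.1 and 51.7 CPM, nearly all from Mir206, while Mir133a-1 had 0 counts in both libraries. All marker values, a 0 included, are of reads at single positions, so they miss reads of any product that several genes make.

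Mir125a was the most abundant gene of the family by these counts. It had 17403 reads in replicate 1 and 15424 in replicate 2, or 5486 and 4201 CPM, a mean of 4843 ± 909 CPM (SD, n = 2). Mir125b-2 had 4308 and 5607 reads, or 1358 and 1527 CPM, a mean of 1443 ± 119. Mir125b-1 had 3862 and 4414 reads, or 1217 and 1202 CPM, a mean of 1210 ± 10.8. The order Mir125a, Mir125b-2, Mir125b-1 held in both libraries, and the values of the 3 genes did not overlap. With 2 libraries the order has no test beyond this. It is an order of reads at single positions and not of the mature products, since reads from within miR-125b-5p are missing from both Mir125b genes.

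Together the genes held 0.806% of miRNA counts in replicate 1 (exact 95% binomial interval 0.796 to 0.816) and 0.693% in replicate 2 (0.685 to 0.702), a mean of 0.750% ± 0.0800. Mir125b-1 and Mir125b-2 made up 0.258% and 0.273% of counts. These intervals cover counting error within 1 library only, and no molecular identifiers are stated. The reads at several positions, which would include miR-125b-5p, outnumbered the counts of the whole family 75.2-fold in replicate 1 and 92.5-fold in replicate 2, and the tables do not say to which genes they belong. Reads on the other strand came to 1 in all for the family, at Mir125b-1 in replicate 1.

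**Figure D2:**
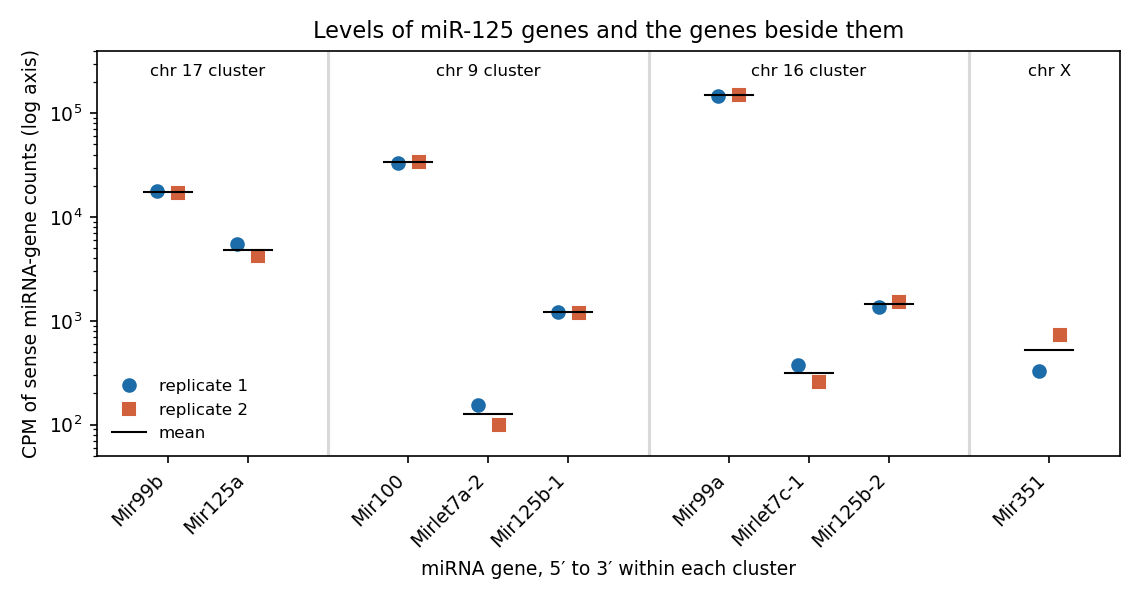
CPM (log axis) of the miR-125 genes, the genes beside them and Mir351 in replicate 1 (circles) and replicate 2 (squares), with the mean as a bar. In each cluster the miR-99/100 gene stands above the miR-125 gene in both libraries, and the miR-125 gene stands above the let-7 gene in both clusters where that gene was measured; Mir351 is at 328 and 727 CPM.

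Among all 1973 genes, Mir125a ranked 29 by mean CPM, 23 in replicate 1 and 34 in replicate 2. Its neighbours in the order were Mir93 and Mir135b. Both stood below Mir125a in replicate 1 and above it in replicate 2, so neither was separated from it beyond the spread. Mir125b-2 ranked 71, between Mir379 at 1659 ± 417 CPM and Mir708 at 1343 ± 154 CPM. These neighbours kept their side in both libraries, but in replicate 1 Mir379 and Mir125b-2 were almost level, at 1364 and 1358 CPM. Mir125b-1 ranked 78, between Mir181b-2 and Mir96, both of which changed sides between the libraries. Mir96, a gene of the sensory cluster, had 258 CPM in replicate 1 and 2032 in replicate 2, whereas Mir125b-1 had 1217 and 1202 CPM.

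The genes closest in level to each member over both libraries were found by the Euclidean distance of log2(CPM + 1). For Mir125a they were Mir135b, a gene of neural progenitors, at a distance of 0.17, Mir30d at 0.31 and Mir369 at 0.33. For Mir125b-1 they were Mir433 at 0.17, Mir107 at 0.18 and Mir154 at 0.21. For Mir125b-2 they were Mir708 at 0.16, Mir107 at 0.20 and Mir433 at 0.24. Mir107 and Mir433 were thus among the closest genes of both Mir125b copies. With 2 libraries this likeness is mainly one of level.

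The miR-125 genes stood well below the miR-99/100 genes of their own clusters. Their products are known from human cells to repress the growth regulator mTOR. Each miR-99/100 gene of a cluster has a 5p sequence that no other gene of the RefSeq table makes, here with the seed in capitals.
miR-99a-5p: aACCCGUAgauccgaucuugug
miR-99b-5p: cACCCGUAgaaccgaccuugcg
miR-100-5p: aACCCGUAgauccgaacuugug
miR-100-5p and miR-99a-5p differ by 1 substitution, A16U from the first to the second. Even so, 0 of the 48 windows of 18 bases in the Mir99a hairpin and 0 of the 63 in the Mir100 hairpin occurred in another miRNA gene of the table. Mir99b was not among the hairpins searched. Matches elsewhere in the genome, or with a mismatch, were not tested.

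In the compact chromosome 17 cluster, Mir99b had 55935 and 62740 reads, 17633 and 17086 CPM. That was 3.21 times the count of Mir125a in replicate 1 (exact 95% interval 3.16 to 3.27) and 4.07 times in replicate 2 (3.997 to 4.14). On chromosome 9, Mir100 had 105397 and 125477 reads, 27.3 times (26.4 to 28.2) and 28.4 times (27.6 to 29.3) the count of Mir125b-1. On chromosome 16, Mir99a had 465917 and 549451 reads, 108 times (105 to 111) and 98.0 times (95.4 to 101) the count of Mir125b-2. The gap was smallest for Mir125a, the member whose 5p product belongs to 1 gene, and larger for both copies whose 5p product could not be counted. The part of the uncounted shared reads in these gaps was not tested.

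The let-7 genes of the clusters were counted at lower levels. Mirlet7a-2 had 494 and 367 reads, and Mir125b-1 had 7.82 times that count in replicate 1 and 12.03 times in replicate 2. Mirlet7c-1 had 1190 and 944 reads, and Mir125b-2 had 3.62 and 5.94 times that count. The hairpin of Mirlet7a-2 holds the let-7a-5p sequence of Mirlet7a-1, and Mirlet7c-1 shares its 5p product with Mirlet7c-2, so both counts lack reads from within those products. Mirlet7e was not measured here.

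**Figure D3:**
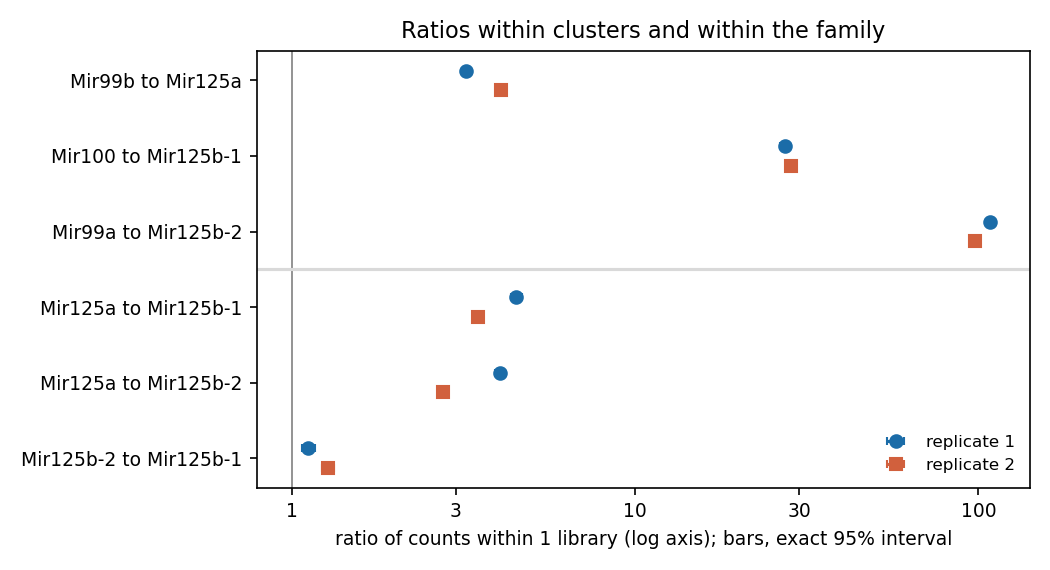
Ratios of counts between genes within 1 library (log axis), replicate 1 as circles and replicate 2 as squares, with exact 95% binomial intervals as bars, mostly narrower than the symbols. The miR-99/100 to miR-125 ratio is 3.21 and 4.07 in the chromosome 17 cluster, 27.3 and 28.4 on chromosome 9, and 108 and 98.0 on chromosome 16; below the line, Mir125a stands 2.75 to 4.51 times above either Mir125b copy.

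Between the libraries of both litters, Mir125a differed most within the family. After TMM scaling, which sets libraries level on a trimmed mean of gene ratios, its log2 ratio of replicate 1 over replicate 2 was 0.60 (exact 95% interval 0.57 to 0.63), or a 1.51-fold higher level in the first library (exact binomial test, two-sided, adjusted p = 1.94e-306 by Benjamini-Hochberg over 360 genes). Mir125b-1 had a log2 ratio of 0.23 (0.17 to 0.29; adjusted p = 1.55e-12, same exact test). Mir125b-2 had one of 0.04 (-0.01 to 0.10; adjusted p = 0.205, same exact test). With scaling by total counts, which moved every log2 ratio by -0.21, the values were 0.39, 0.02 and -0.17, so the direction of Mir125b-2 turned.

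A gene was called different at an adjusted p below 0.05 and at least 2-fold, and 37 of the 360 tested genes (10.3%) were. All 3 members passed the filter of 10 counts, and 0 of 3 were called. Without the fold minimum 204 genes (56.7%) passed, among them Mir125a and Mir125b-1. With scaling by total counts Mir125b-1 no longer passed this looser rule (adjusted p = 0.65, exact binomial test), whereas Mir125b-2 did, on the side of replicate 2 (adjusted p = 2.01e-08, same exact test). The test covers counting error alone and compares these libraries, not litters. With an assumed coefficient of variation of 0.2 between libraries, the adjusted p of Mir125a in edgeR's exactTest was 0.738. Of the 360 genes, 87 had a larger absolute log2 ratio than Mir125a, 214 a larger one than Mir125b-1 and 334 a larger one than Mir125b-2. The family's median log2 ratio was 0.23, against -0.02 over all tested genes.

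The members also moved relative to each other. The ratio of Mir125a to the sum of both Mir125b genes was 2.13 in replicate 1 (exact 95% interval 2.07 to 2.19) and 1.54 in replicate 2 (1.501 to 1.58), a measure that needs no scaling of the libraries (two-sided Fisher's exact test, adjusted p = 2.5e-68 over 10 ratios). Mir125b-2 had 1.12 times the count of Mir125b-1 in replicate 1 and 1.27 times in replicate 2 (Fisher's exact test, adjusted p = 1.58e-05). Mir99b to Mir125a differed between the libraries as well and was lower in replicate 1 (log2 odds ratio -0.34, Fisher's exact test, adjusted p = 1.09e-78). Mir99a to Mir125b-2 differed by less and the other way, higher in replicate 1 (log2 odds ratio 0.14, adjusted p = 1.53e-06, exact test). Mir100 to Mir125b-1 did not pass (log2 odds ratio -0.06, adjusted p = 0.0706, exact test). These p-values too cover counting error only.

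**Figure D4:**
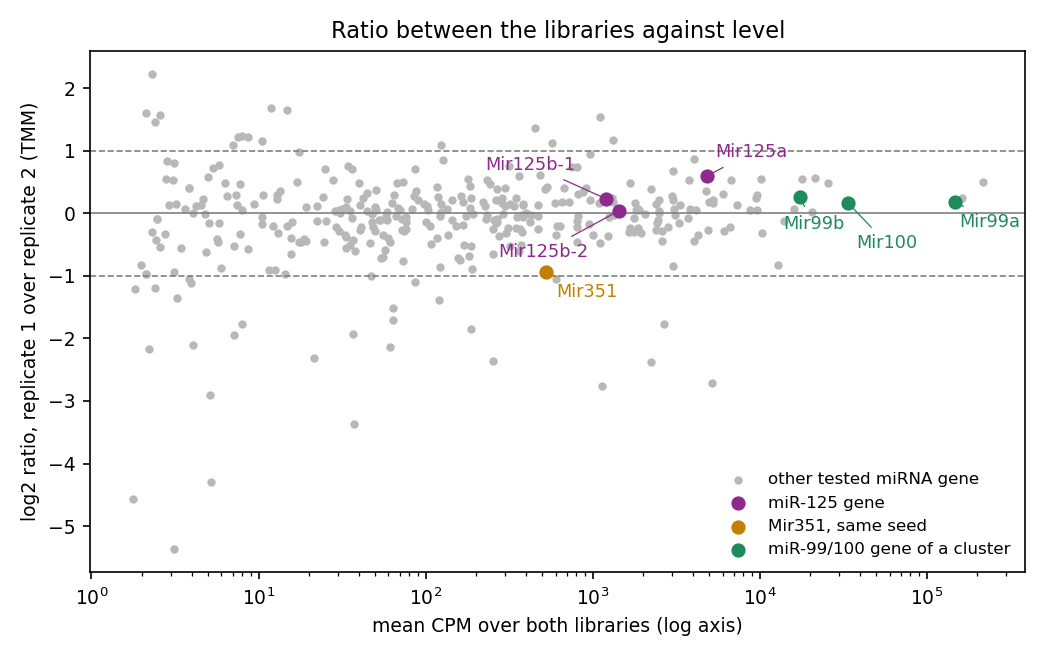
Log2 ratio of replicate 1 over replicate 2 after TMM scaling against mean CPM (log axis) for the 360 tested miRNA genes, with dashed lines at 2-fold. The 3 miR-125 genes lie inside the 2-fold lines at 0.60, 0.23 and 0.04, to the left of the more abundant miR-99/100 genes of their clusters, and Mir351 lies at -0.93.

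The list of miR-99/100/10 genes, relatives of the cluster partners, had log2 ratios from 0.17 to 0.50 with a median of 0.25, and 0 of 5 were called. With scaling by total counts that median was 0.04, and Mir99a and Mir100 turned to -0.03 and -0.04. In the let-7 family, the other miRNA family of the lin-4 and let-7 timing pathway, all 10 tested genes of 12 had ratios above 0. The ratios ran from 0.32 to 1.36 with a median of 0.72, and 2 genes were called, Mirlet7a-1 and Mirlet7c-2. For comparison, 175 of all 360 tested genes had ratios above 0 and 37 (10.3%) were called. With scaling by total counts the let-7 median was 0.51, and Mirlet7a-1, at 0.88, was no longer called. Mirlet7a-2 and Mirlet7c-1, the cluster partners of the Mir125b genes, had log2 ratios of 0.85 and 0.76. Mir125b-1 to Mirlet7a-2 and Mir125b-2 to Mirlet7c-1 differed between the libraries, with log2 odds ratios of -0.62 and -0.71 (Fisher's exact test, adjusted p = 3.46e-09 and 9.46e-25). The ratio of Mir125a, 0.60, fell between the medians of both lists. Sensory and mesenchymal markers were higher in replicate 2, with 3 of 3 and 4 of 4 called. Of the 5 tested neuronal markers 4 had ratios above 0 and 2 were called higher in replicate 1, Mir128-1 at 1.18 and Mir128-2 at 1.13, both short of 2-fold, at 0.97 and 0.92, once total counts set the scale. The part of these markers in the ratios of the miR-125 genes was not tested.

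Outside the family, 3 genes of the RefSeq table have a product with the miR-125 seed, namely Mir351, Mir6367 and Mir6394. Mir6367 and Mir6394 had 0 counts in both libraries, which allows up to 0.946 and 0.817 CPM in replicates 1 and 2. Mir351, on chromosome X, 53053255 to 53053353, minus strand, had 1042 reads in replicate 1 and 2668 in replicate 2, or 328 and 727 CPM, so it was higher in replicate 2 where Mir125a was lower. Its log2 ratio was -0.93 (exact 95% interval -1.04 to -0.83; exact binomial test, adjusted p = 9.38e-75), short of the 2-fold minimum, and -1.15, past it, with scaling by total counts. Mir351 reached 0.0599 of the count of Mir125a in replicate 1 and 0.173 in replicate 2 (Fisher's exact test, adjusted p = 1.9e-186). miR-351-5p matches miR-125a-5p at 10 of 24 positions, the first 8 among them, so its reads were counted apart from the family. Its neighbours on chromosome X, Mir322 and Mir503, chosen after their values were seen, had log2 ratios of -0.83 and -1.70.

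Some other genes share a mature sequence as the Mir125b genes do. A mature sequence in the RefSeq table and a count row, with or without reads, were present for 916 genes. Of these, 87 made at least 1 product that another gene also makes, and 46 of the 87 were tested. Together the 87 genes held 2.24% of miRNA counts in replicate 1 and 2.13% in replicate 2. Mir125b-2 ranked 4 and Mir125b-1 ranked 7 among them by mean CPM. Above both stood Mir181a-1 at 3128 ± 374 CPM, which shares a product with Mir181a-2, Mir219a-2 at 2232 ± 202 CPM, a gene of the oligodendrocyte lineage, and Mir16-1 at 1786 ± 39.2 CPM. Among the genes that share no product, 67 of 282 tested reached the level of Mir125b-1, against 7 of 46 of those that do, itself included. The median level of tested genes went the other way, at 120 CPM without a shared product and 143 CPM with one. Of all genes in each class, 282 of 829 without a shared product and 46 of 87 with one were tested. This is a description, with no test.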

How the data were processed

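The authors deposited 1 table of raw read counts per library, with 3 columns of counts, on either strand, the sense strand and the other strand. Per the text notes deposited with them, the counts rest on alignments to mm10 and the annotation M4. The sources used here do not give the aligner, trimming or filters. The sense counts were used, and the 4 rows that name no gene stayed out of library sizes and tests. They held 46.6% and 48.1% of reads in replicates 1 and 2. Symbols and positions came from GENCODE M21 (1894 of 1973 identifiers matched), and sequences from RefSeq tables of GRCm38.p6, which held mature sequences of all 3 members.

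Genes with at least 10 counts in 1 library were tested. Libraries were scaled by TMM in edgeR 4.0.16 (R 4.3.3), and log2 ratios used a prior count of 0.5. With 1 library per dam edgeR's quasi-likelihood test had no residual degrees of freedom, so exact binomial tests were used (scipy 1.17.1). Ratios of counts were compared by Fisher's exact test. DESeq2 1.42.0 gave alternative size factors. The procedure was tested on data simulated with counting error alone, which cannot show how it fares with variation between libraries. Nothing beyond the dam is stated to separate the samples, so p-values measure only the difference of these libraries.

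The members, gene lists and tests were chosen with earlier results of these data known. Named genes were the members, their cluster genes, genes with the same seed, the 3 genes closest in level to each member, the 3 highest genes that share a product, and marker and family lists. Neighbours in the order of levels and of Mir351 fall outside this rule and were chosen after their values were seen.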

Additional observations from a re-analysis of the deposited data

Results flagged for a closer look

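Reads at several positions, which no gene count includes, made up 32.4% of the reads in replicate 1 and 33.3% in replicate 2. They stand out as a large signal in data that none of the comparisons used, far above the limit set by a count of 0. Reads from within miR-125b-5p fall among them, and how many they are was not measured.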

How the results depend on the processing

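With scaling by total counts the log2 ratio of Mir125b-2 turned to -0.17, because that scaling moved all ratios by -0.21. In no alternative was a miR-125 gene called 2-fold different. The number of miRNA genes that differed, 37, was 21 with at least 100 counts over both libraries, where fewer genes were tested (282), and 21 with edgeR's exactTest at an assumed coefficient of variation of 0.2, below the 0.303 estimated from these libraries; it was 43 with scaling by total counts, where the split between replicates 1 and 2 went from 14 and 23 to 8 and 35. Per all reads in the table, the mean levels of Mir125a, Mir125b-1 and Mir125b-2 were 2555, 637 and 759 per 1000000 and the family's share 0.395%, since the denominator is larger. With counts on either strand Mir125b-1 stood at 1193 CPM. With copies summed, Mir125b-1 and Mir125b-2 together ranked 48. Leaving out a replicate put Mir125b-1 at rank 74 to 79 and Mir125b-2 at 70 to 71. The share of Mir125b-1 windows found in no other gene was 98.2% at 22 bases, 94.8% at 20 and 91.7% at 18. The shared ones were exactly the windows that lie within miR-125b-5p, so the change with read length follows from its 22 bases. Windows reaching beyond the mature sequences of Mir125b-2 could not match it, so the shares are upper limits. At 24 and 26 bases 0 of 54 and 0 of 52 windows were shared, which says nothing of Mir125b-2, since it was compared by mature sequences of 22 bases. No paired analysis was possible because the samples form 1 group. Depth limits genes at 0 counts to below 0.946 and 0.817 CPM.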
